A study of Mus musculus with 4 samples.

Results

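Transcripts for 10 peptide hormone and biogenic amine genes were followed across sorted cells of the mouse trachea and stomach. The 10 genes were named by symbol among the 48709 genes of the series, and all 10 were found in the table. They comprise the hormone and neuropeptide genes Ghrl, Gast, Sst, Cck, Nts, Calca and Tac1 and the amine synthesis genes Hdc, Ddc and Tph1. RNA-seq libraries came from adult C57BL/6 mice that carried the transgene Tas2r143-CreERT2 and the reporter allele Rosa26flox-mT-stop-flox-mG. The transgene, a bacterial artificial chromosome, drives CreERT2 from the Tas2r143 promoter, and a cell that recombines, with its descendants, exchanges Tomato for EGFP. All animals were given tamoxifen for 5 days and were studied 5 days after the last dose. Live EGFP-positive cells were sorted without an epithelial gate, whereas live Tomato-positive cells had to be EpCAM-positive and EGFP-negative. Each of the 4 libraries, EGFP and Tomato of each tissue, was a pool of 3 mice from a single transgenic line, so there was 1 library per group and no replicate.

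Gut and airway hormones are made by scattered endocrine cells of the epithelium, which store peptides cut from larger precursors or amines pumped into vesicles. In the stomach, ghrelin comes from X/A-like cells, gastrin from G cells, somatostatin from D cells and histamine from enterochromaffin-like cells. Gastrin and histamine drive acid secretion, and somatostatin restrains it. Mast cells also make histamine and, in rodents, serotonin. Tuft cells, the chemosensory cells that this reporter labels in both tissues, are a separate epithelial lineage.

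The upstream sequences of the 4 genes with the highest values in the stomach, and of Nts, which was found in the trachea but not in the stomach, are shown because these genes carry the contrasts described below. They were taken from RefSeq on GRCm38.p6, for which all 10 genes matched with 15 annotated starts, and are written 5′ to 3′ on the strand of the gene. Capitals mark matches, on either strand, to the E-box CANNTG, to TATAA and to the cAMP response element TGACGTCA. The Ghrl window lies before the most upstream of several annotated starts (chr6:113719912-113720161, minus strand), and those of Gast (chr11:100334157-100334406, plus strand) and Hdc (chr2:126618679-126618928, minus strand) end at the base before the start. For Nts the part outside annotated exons is given (chr10:102490487-102490668, minus strand), and for Sst the 30 bases around the cAMP response element (chr16:23890874-23890903, minus strand).
Ghrl: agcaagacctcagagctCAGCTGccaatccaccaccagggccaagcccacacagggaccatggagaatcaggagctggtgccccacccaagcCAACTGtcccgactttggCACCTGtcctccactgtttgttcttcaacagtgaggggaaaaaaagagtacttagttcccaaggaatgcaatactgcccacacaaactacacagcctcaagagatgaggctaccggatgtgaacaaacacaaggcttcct
Gast: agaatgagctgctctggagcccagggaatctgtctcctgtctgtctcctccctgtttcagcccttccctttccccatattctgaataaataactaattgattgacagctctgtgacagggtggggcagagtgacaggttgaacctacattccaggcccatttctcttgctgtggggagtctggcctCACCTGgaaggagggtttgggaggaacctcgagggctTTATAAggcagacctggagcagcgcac
Sst: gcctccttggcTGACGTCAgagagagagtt
Hdc: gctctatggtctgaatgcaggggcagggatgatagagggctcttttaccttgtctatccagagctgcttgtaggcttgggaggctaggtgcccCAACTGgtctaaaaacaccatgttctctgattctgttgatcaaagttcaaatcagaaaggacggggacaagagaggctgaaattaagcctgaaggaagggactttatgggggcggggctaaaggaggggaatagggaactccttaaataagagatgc
Nts: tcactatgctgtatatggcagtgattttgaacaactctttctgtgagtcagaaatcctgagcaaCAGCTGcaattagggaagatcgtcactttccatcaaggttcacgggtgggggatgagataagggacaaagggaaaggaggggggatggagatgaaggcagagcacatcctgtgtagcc
The element of Sst begins 48 bases before the RefSeq start. Gene spans given below come from GENCODE, in which the Sst and Hdc genes begin further upstream. The Sst stretch and the Hdc window therefore lie inside those gene spans. In windows of 300 bases, 250 before and 50 after each start, TGACGTCA occurred in 1 of the 15 windows of these genes and in 1.79% of all 32851 RefSeq windows. TATAA occurred in 4 of 15 and in 24.9% of all windows, and CANNTG in 12 of 15 and in 72.3%. These matches describe the letters and are not mapped binding sites.

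Values are normalized counts, that is, reads per gene after scaling of each library and rounding by the authors. They summed to between 9.98 and 15.4 M per library, or an estimated 6.20 to 18.9 M reads, the lowest being the EGFP library of the trachea. A detection floor of 3 reads corresponded to 4.83 normalized counts in that library and to between 2.36 and 2.45 in the others. Since all 37 mitochondrial genes stand at 0 in every library, a gene without a value is described as listed at 0. The title of each sample names 1 tissue and its tissue field the other, and libraries are assigned here by title. With that assignment, 4 gastric pit cell markers together stood at 57187 normalized counts per M in the Tomato library of the stomach and 0.807 in that of the trachea, and 6 club cell markers at 2940 and 93214. Single markers went the other way. Lipf, the gastric lipase gene of the chief cell list, stood at 53408 normalized counts in the Tomato and 924 in the EGFP library of the trachea and at 0 in both libraries of the stomach. Bpifb1, of the club cell list, stood at 45309 in the Tomato library of the stomach, nearly all of the club cell sum there, and at 7771 in that of the trachea. All 12 tuft cell markers were 4-fold or more higher in the EGFP library than in the Tomato library of each tissue. Markers of B and plasma cells, 7 genes, summed to 50294 normalized counts per M in the EGFP library of the stomach, against 64.8 to 2393 in the others, and 12 myeloid markers to 1263 and 3318 in the Tomato libraries of stomach and trachea and to 90.5 and 85.4 in their EGFP libraries. Their part in the values below was not tested. The Tomato cells are a mixture of cell types, and in such libraries fewer cells of a type and less RNA per cell cannot be told apart.

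In the stomach the hormone and amine genes were found almost entirely in the Tomato-positive cells. The 10 genes together made up 1.09% of all normalized counts of the Tomato library and 0.00581% of those of the EGFP library. A gene was called higher or lower from 4-fold on, as log2((EGFP + 1)/(Tomato + 1)), where the higher library reached 50 normalized counts. By this rule 7 of the 10 genes were lower in the EGFP library of the stomach and 0 were higher, while Cck, Nts and Tac1 were listed at 0 in both libraries. Among all 11094 genes at the minimum, 22.4% were lower and 14.8% higher, or 37.2% called in all. The 7 genes all passed the minimum through the Tomato library, so their count describes where they were detected and carries no test. Their median log2(EGFP/Tomato) was -7.14, against -0.15 over all genes at the minimum.

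Ghrl (ENSMUSG00000064177, chr6:113716119-113719880, minus strand), which encodes ghrelin, stood at 90866 normalized counts in the Tomato library of the stomach, 13 in the EGFP library of the stomach and 0 in both libraries of the trachea. It was high in a single library, in which the level was 6990-fold that of the EGFP library (95% interval 4247 to 11674, exact binomial on estimated reads, counting error only). Gast (ENSMUSG00000017165, chr11:100334407-100336996, plus strand), the gastrin gene, stood at 31644 in Tomato-positive and 15 in EGFP-positive cells of the stomach, at 3 in EGFP-positive cells of the trachea and at 0 in Tomato-positive cells of the trachea. The stomach libraries differed by 2110-fold (interval 1357 to 3520). The value of 3 in the trachea rests on about 2 reads and lies under the detection floor.
Sst (ENSMUSG00000004366, chr16:23889573-23890958, minus strand), the somatostatin gene, stood at 39647 normalized counts in the Tomato library and 718 in the EGFP library of the stomach, and was listed at 0 in both libraries of the trachea. It was the sole member to reach 50 normalized counts in an EGFP library, with an estimated 913 reads, and was 55.2-fold lower there than in the Tomato library (interval 51.7 to 59.1). Calca (ENSMUSG00000030669, chr7:114631478-114636357, minus strand) gives calcitonin and calcitonin gene-related peptide by alternative splicing, which a value per gene cannot tell apart. It stood at 75 normalized counts in the Tomato library of the stomach and was listed at 0 in the EGFP library.

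**Figure D1:**
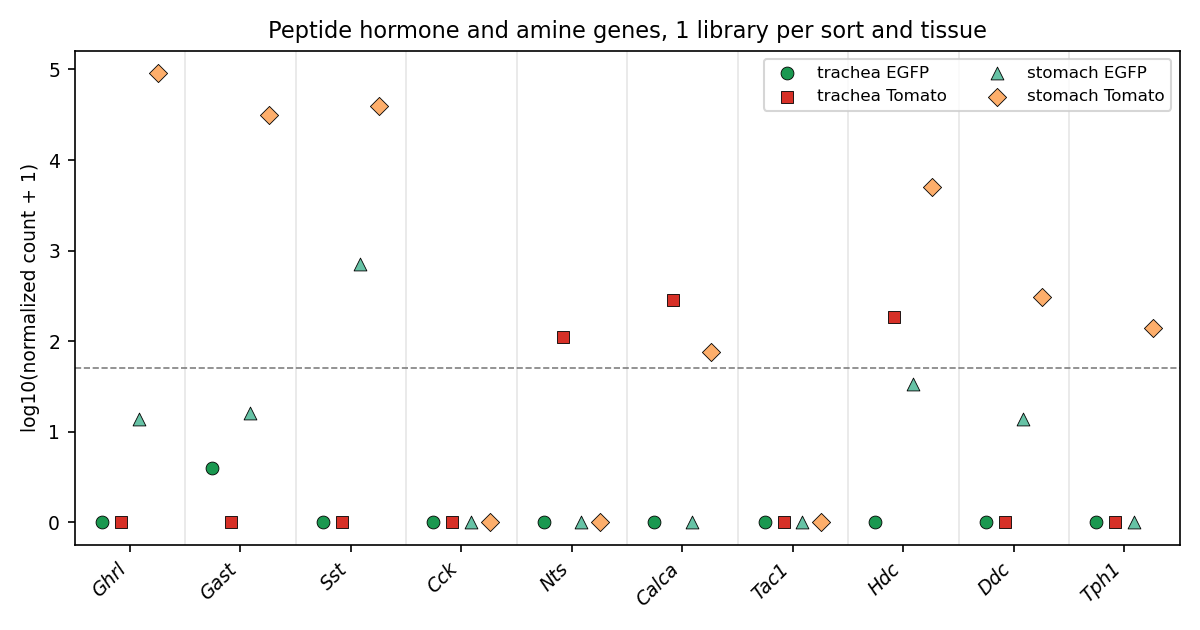
The 10 genes on the horizontal axis with log10(normalized count + 1) on the vertical axis, 1 point for each of the 4 libraries and no replicates, and a dashed line at 50 normalized counts. Apart from Nts and Calca, highest in Tomato-positive cells of the trachea, and Cck and Tac1, at 0 throughout, each gene is highest in the Tomato-positive cells of the stomach, and Sst is the single gene above the line in an EGFP library.

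For the 5 members with reads in both stomach libraries, the EGFP level was expressed as a share of the Tomato level. For Ghrl the EGFP level was 0.0143% of the Tomato level (interval 0.00857 to 0.0235) and for Gast 0.0474% (0.0284 to 0.0737). For Hdc it was 0.653% (0.470 to 0.883), for Sst 1.81% (1.69 to 1.93) and for Ddc 4.26% (2.52 to 7.11). In the EGFP library Sst rests on an estimated 913 reads and the other 4 on 17 to 42. Within the Tomato library Ghrl stood at 2.29 times Sst in normalized counts, and within the EGFP library at 0.0181 times Sst. The intervals compare 2 libraries and cover counting error, not variation between mice, so these shares are a description without a test.
The shares of the chief and pit cell lists are given beside them. The chief cell genes Pgc, which encodes progastricsin, and Gif, which encodes intrinsic factor, had EGFP levels at 3.97% to 4.04% (interval) and 7.80% of the Tomato level, and Pga5, a pepsinogen gene, and Bhlha15, a transcription factor of secretory cells, at 17.5% and 22.5%. Lipf, also on the chief cell list, was listed at 0 in both libraries. Of the pit cell genes, Gkn1 and Gkn2 had shares of 11.8% and 12.5% and Tff1 and Muc5ac of 9.59% and 9.21%. Hhex, a transcription factor of D cells, stood at 6 normalized counts in EGFP-positive and 670 in Tomato-positive cells, a share of 0.896% (0.404 to 1.86). Isl1, a transcription factor of several endocrine cell types, stood at 88 and 1154, a share of 7.63% (6.24 to 9.25). Hhex rests on an estimated 8 reads in the EGFP library, so its interval is wide. The share of Sst was above that of Hhex but within its interval, and the interval of Sst reached past it. It lay below the intervals of Isl1 and of the 8 chief and pit cell genes with a share. The part of D cells in the Sst value was not tested. Chga, the general endocrine granule gene, was listed at 0 in EGFP-positive cells and stood at 88713 in Tomato-positive cells, so that it has no such share.

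**Figure D2:**
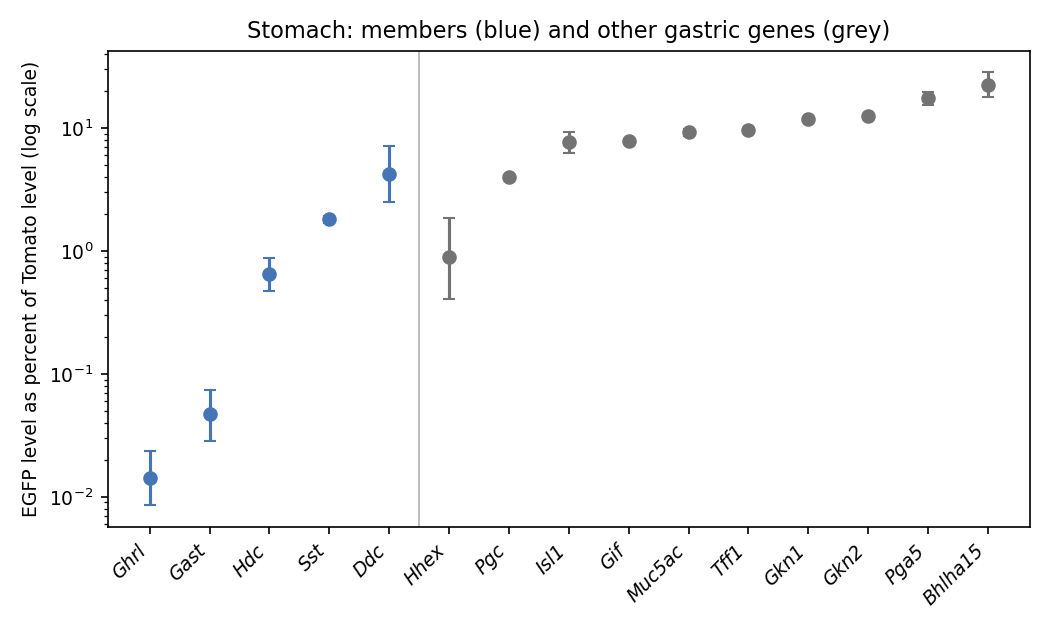
EGFP level as a percent of the Tomato level in the stomach on a log axis, for the 5 members with reads in both libraries (blue) and for 10 other gastric genes (grey). Points are 1 pair of libraries and bars are 95% exact binomial intervals on estimated reads, with Ghrl at 0.0143%, Gast at 0.0474% and Sst at 1.81%.

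Of the amine genes, Hdc (ENSMUSG00000027360, chr2:126593667-126619299, minus strand), the enzyme that makes histamine, stood at 5057 normalized counts in Tomato-positive and 33 in EGFP-positive cells of the stomach. In the trachea it stood at 184 in Tomato-positive cells and was listed at 0 in EGFP-positive cells. The EGFP library was thus 153-fold lower in the stomach (113 to 213). Ddc (ENSMUSG00000020182, chr11:11814101-11898144, minus strand), the decarboxylase shared by dopamine and serotonin synthesis, stood at 305 in Tomato-positive and 13 in EGFP-positive cells of the stomach, 23.5-fold lower (14.1 to 39.6), and at 0 in the trachea. Tph1 (ENSMUSG00000040046, chr7:46644641-46672537, minus strand), the rate-limiting enzyme of serotonin synthesis outside the brain, stood at 140 in the Tomato library of the stomach and at 0 in the other libraries. All 3 enzymes were therefore highest in the Tomato-positive cells of the stomach.
Markers of endocrine and mast cells, which make these products, were set beside the 3 enzymes. In the stomach 11 of 12 enteroendocrine and 8 of 10 mast cell markers at the minimum were lower in EGFP-positive cells. Among all genes at the minimum 22.4% were lower. Of the mast cell markers 1 was higher, and 1 marker of each list was called neither. These counts carry no test. All 12 enteroendocrine markers, Chga, Chgb and Resp18 among them, reached 50 normalized counts in the Tomato library of the stomach, and 10 of 12 were listed at 0 in the EGFP library. The other 2 were Cpe, a carboxypeptidase of prohormone processing, at 15570 in EGFP-positive and 8111 in Tomato-positive cells, and Aplp1 at 138 and 856. The mast cell list summed to 5852 normalized counts in EGFP-positive and 8116 in Tomato-positive cells, and 9 of its 12 genes were listed at 0 in the EGFP library. Hpgds, a prostaglandin synthase, alone held 5529 of the EGFP sum. The mast cell proteases Mcpt2 and Cma1 stood at 2435 and 1073 in Tomato-positive cells and at 0 in EGFP-positive cells. The 5 basophil markers summed to 2 in EGFP-positive and 62 in Tomato-positive cells, with Mcpt8 and Prss34 at 0 in both, and the 10 neuronal markers to 0 and 304. The part of endocrine and of mast cells in the Hdc and Tph1 values was not tested.

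**Figure D3:**
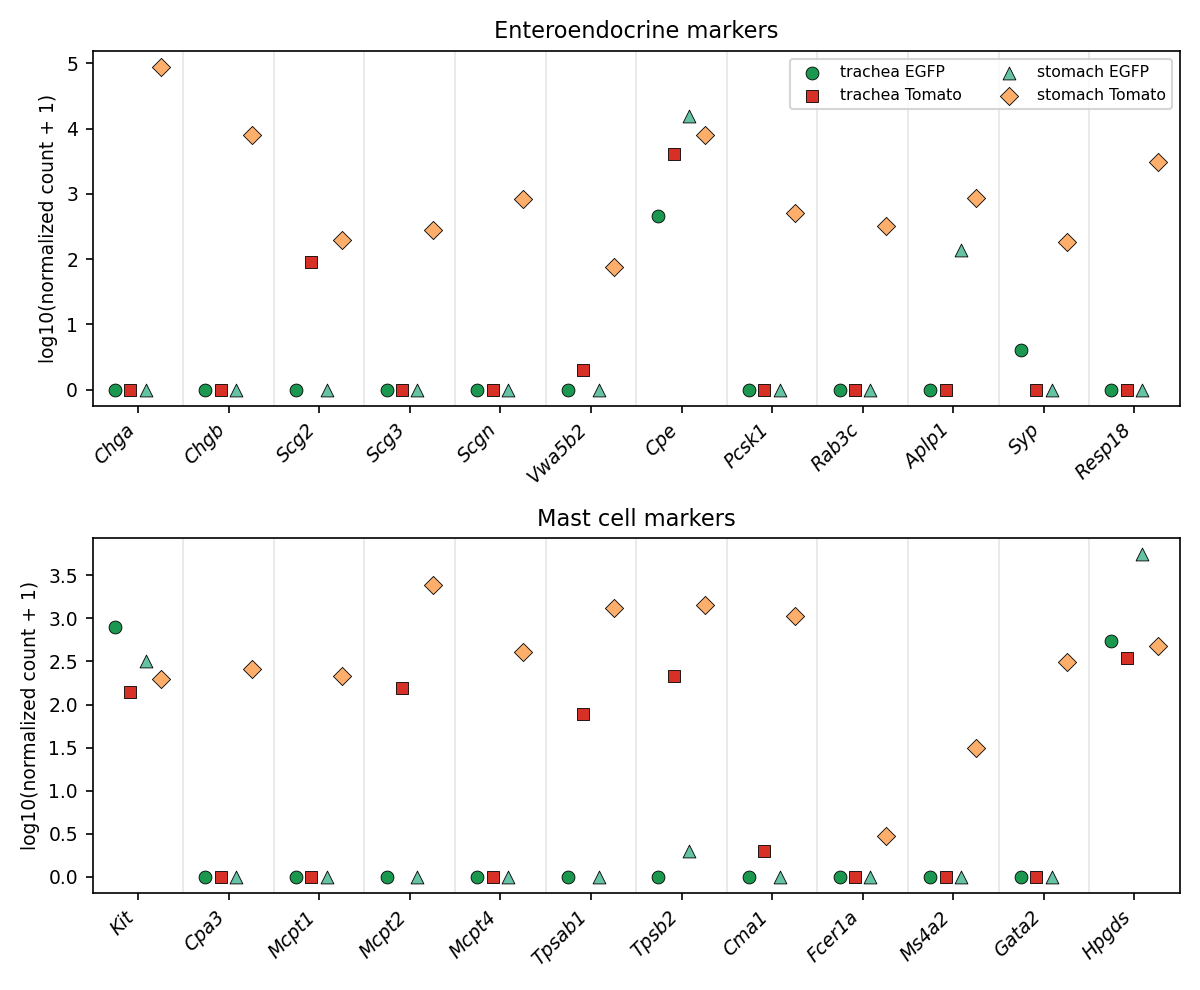
Enteroendocrine (upper) and mast cell (lower) markers on the horizontal axes with log10(normalized count + 1) on the vertical axes, 1 point per library. In the EGFP library of the stomach the enteroendocrine markers other than Cpe (15570) and Aplp1 (138) lie at 0, and of the mast cell markers Hpgds (5529), Kit (322) and Tpsb2 (1) lie above it.

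Levels of different genes were compared as normalized counts per kb of annotated exon and M of the library. Annotated exon is the union of all exons of a gene, 460 bases for Gast and 6389 for Hdc, and the order depends on it. In the Tomato library of the stomach the order was Ghrl with 5457, Gast with 4457, Sst with 3563 and Hdc with 51.3, followed by Ddc with 4.43, Calca with 2.89 and Tph1 with 1.47. No neighbours in this order had overlapping counting intervals. In normalized counts not divided by length the order differed, with Sst (39647) above Gast (31644) and Tph1 (140) above Calca (75). In the EGFP library of the stomach Sst led with 73.1 (68.4 to 77.9), followed by Gast with 2.39 (1.43 to 3.72) and Ghrl with 0.884 (0.529 to 1.45). The intervals of Gast and Ghrl overlapped slightly, and that of Hdc at 0.379 (0.273 to 0.513) overlapped with that of Ddc at 0.214 (0.128 to 0.352). In normalized counts of this library Hdc (33) stood above Gast (15) and Ghrl (13).

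In the trachea 3 of the 10 genes reached 50 normalized counts, and these were called lower in the EGFP-positive cells, where they were listed at 0. Of all 10523 genes at the minimum 32.4% were lower and 25.2% higher, or 57.6% called in all. The 3 genes all passed the minimum through the Tomato library, so their count and median describe where they were detected and carry no test. Their median log2(EGFP/Tomato), the size of which depends on the pseudocount, was -7.53, against -0.32 over all genes at the minimum. Calca stood at 287 normalized counts in the Tomato library, about 355 reads. Nts (ENSMUSG00000019890, chr10:102481756-102490486, minus strand), the neurotensin gene, stood at 111 in the same library and at 0 in the EGFP library of the trachea and in both libraries of the stomach. Hdc stood at 184, as given above. Per kb of exon and M, Calca led with 11.5 (10.3 to 12.7), ahead of Nts with 5.98 (5.01 to 7.06) and Hdc with 1.94 (1.69 to 2.20), without overlap. This order rests on the exon lengths, since in normalized counts Hdc (184) stood above Nts (111). The sum over the 10 genes was 582 normalized counts in the Tomato library, or 0.00391% of its total, and 3 in the EGFP library, all of it Gast.
Calca is the usual marker of airway neuroendocrine cells, yet few other genes of such cells were present beside it. Snap25, a gene of vesicle release, stood at 362 in the Tomato library, and 7 of the 9 neuroendocrine markers besides Calca, Chga, Chgb, Syp, Uchl1 and Resp18 among them, were listed at 0. Stmn2, a neuronal gene, stood at 376 in that library, and Prph, Scn10a, Elavl4 and Nefl were at 0. Of 12 mast cell markers, 6 were above 0 in that Tomato library, with Tpsb2 at 214 and Mcpt2 at 155, and Cpa3 and Mcpt4 were at 0. In the EGFP library Kit at 784 and Hpgds at 549 were the 2 above 0. The part of neuronal and mast cells in the Calca, Nts and Hdc values of the trachea was not tested.

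Cck (ENSMUSG00000032532, chr9:121489824-121495694, minus strand), the cholecystokinin gene, and Tac1 (ENSMUSG00000061762, chr6:7554879-7565834, plus strand), which encodes substance P and neurokinin A, were listed at 0 in all 4 libraries. Since the mitochondrial genes are also listed at 0, this says nothing of their expression.

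Between tissues, 6 of the 10 genes were higher in Tomato-positive cells of the stomach than of the trachea, where 27.9% of all 11338 genes at the minimum were higher. Ghrl, Gast, Sst, Ddc and Tph1 were listed at 0 in the trachea, and Hdc was 27.5-fold higher in the stomach (24.1 to 31.6). Nts was lower in the stomach, as were 20.3% of all genes, and 48.2% of all genes were called. Calca was called neither, with a stomach level 0.261 times that of the trachea (0.206 to 0.330) and a log2 ratio of -1.92. Among EGFP-positive cells Sst was the single gene at the minimum, with 718 normalized counts in the stomach and 0 in the trachea, and was called higher, as were 28.3% of all 10337 genes at the minimum, with 19.8% lower and 48.1% called in all. Sst passed the minimum there through the stomach library alone. Among Tomato-positive cells so did Ghrl, Gast, Sst, Ddc and Tph1, and Nts passed it through the trachea library alone. The counts between tissues therefore describe where these genes were detected and carry no test. The dissociation of the tissues differed as well, so tissue and dissociation cannot be told apart in these comparisons.

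Genes that act with these hormones were examined as lists, each described by counts that carry no test. The shares over all genes at the minimum apply to every list below. In the stomach 22.4% of all genes were lower and 14.8% higher, and in the trachea 32.4% were lower and 25.2% higher. Of 47 other peptide hormone genes, 9 reached the minimum in the stomach. In EGFP-positive cells 7 were lower, 1 was higher and 1 was called neither, and the median log2(EGFP/Tomato) was -5.46. Penk, the proenkephalin gene, stood at 0 in EGFP-positive and 1085 in Tomato-positive cells, Gcg, the proglucagon gene, at 0 and 256, and Pyy at 0 and 101. Sct, the secretin gene, went the other way with 866 and 14, a ratio of 61.9 (38.8 to 108). In the trachea, EGFP-positive cells had 79 normalized counts of Sct, and Tomato-positive cells were listed at 0. Secretin was thus the peptide hormone gene of this list called higher in EGFP-positive cells of both tissues. Of the 7 list genes measured in the trachea 4 were lower, with Calcb, the paralog of Calca, at 0 and 803 and Nppc, a natriuretic peptide gene, at 0 and 515. The 2 higher genes were Sct and Pomc, the latter at 100 and 0. The median of the 7 genes was -7.48.
Genes of peptide maturation were lower for 9 of 14 in the stomach and higher for 0, with a median of -2.63. Pcsk1, a prohormone convertase, stood at 0 in EGFP-positive and 507 in Tomato-positive cells, and Pcsk2 at 22 and 1026. Mboat4, the enzyme that acylates ghrelin, stood at 1 and 157. In the trachea 2 of 9 were higher and 4 lower, with a median of -1.65. Qpctl, a glutaminyl cyclase of the Golgi, stood at 816 with EGFP and was listed at 0 with Tomato, and Qpct, its secreted relative, at 0 and 473.
Of the amine pathway genes 12 were measured in the stomach, 5 of them lower and 0 higher, with a median of -1.37. The amine oxidases Maoa and Maob were listed at 0 in EGFP-positive cells, against 217 and 140 in Tomato-positive cells. The vesicular monoamine transporters were called neither, Slc18a1 at 319 in EGFP-positive and 158 in Tomato-positive cells and Slc18a2 at 458 and 625. Transcripts of both transporters were thus present in an EGFP library in which Tph1 was listed at 0. In the trachea Slc18a2 was lower, at 19 and 1896, and 2 of 10 amine pathway genes were lower and 2 higher, with a median of 1.15. Pcbd1, which recycles the cofactor of aromatic amino acid hydroxylases, stood there at 1027 and 0. With both libraries set to the same total, Qdpr (1.91) also passed 2 on the log2 scale in the trachea, at 2.49. The list holds Renbp, which encodes a renin-binding protein and is not an enzyme of amine metabolism. Without it, an alternative chosen after seeing the data, the counts of higher and lower genes were the same, out of 11 genes in the stomach with a median of -1.40 and out of 9 in the trachea with a median of 1.001.
Receptor genes for these hormones and amines were lower for 9 of 10 in the stomach, with a median of -4.98, among them the gastrin receptor Cckbr at 0 and 223. Sort1, a neurotensin-binding sorting receptor, was called neither at 1519 and 618. In the trachea 3 of 6 were higher and 3 lower, with a median of -0.14, and Sort1 was higher at 829 and 108, while Tacr1, the substance P receptor, stood at 0 and 121. Of endocrine transcription factors, 4 of 7 were lower in the stomach and 2 higher, with a median of -3.02. Neurod1 stood at 0 and 121, whereas St18 was at 1129 and 109 and Prox1 at 414 and 33. In the trachea 2 of 5 were higher and 1 was lower, with a median of 1.80, and St18 stood at 2951 and 0 and Etv1 at 5191 and 341.

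**Figure D4:**
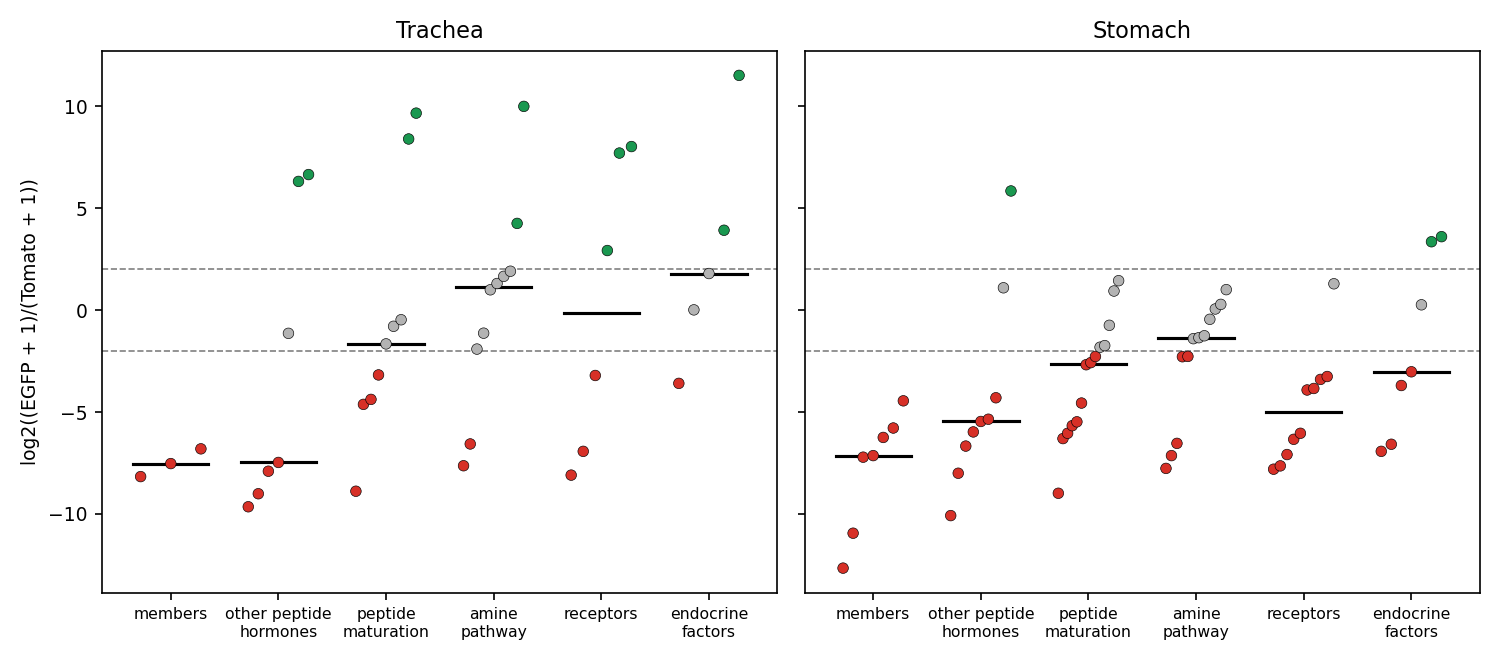
On the vertical axis, log2((EGFP + 1)/(Tomato + 1)) computed from normalized counts, for genes that reached 50 normalized counts, by list, in the trachea (left) and stomach (right), 1 library per sort. Green, red and grey points were called higher, lower and neither. Bars give the median of a list and dashed lines stand at 2 and -2, and the members lie below -2 in both tissues (3 in the trachea, 7 in the stomach).

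The genes most like each member over the 4 libraries were found by Euclidean distance between log2(normalized count + 1) values centered on the mean of each gene, among 9686 other genes at 200 or more. For Ghrl these were Gast at a distance of 2.50 and Vtn at 3.02, and for Gast they were Vtn at 1.72 and Ghrl. Vsig1 at 1.49 and Pnliprp2 at 1.67, with 690 and 1217 normalized counts in EGFP-positive cells of the stomach, were nearest to Sst. Akr1c14 at 1.01 and Ogn at 1.37 were nearest to Hdc, Arhgef25 and Cd40 at 0.095 and 0.11 to Calca, and Cnn1 and Cenpm at 0.060 and 0.089 to Ddc. With 4 values per gene this is a description of shape alone.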

How the data were processed

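RNA-seq was analysed for 4 libraries, each pooled from 3 mice. Per the paper's methods and the labels, reads were trimmed with Reaper, aligned to GRCm38 with STAR 2.4.0a and counted over exons with featureCounts 1.4.5-p1, without reads that aligned to several places or genes. The deposited score per gene is a normalized count, rounded to whole numbers by the authors, and the sources used here do not say how libraries were scaled. For 116 symbols on more than 1 line, none of them a member, the line of largest sum was kept.

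The worth of 1 read was estimated from the spacing of low values as 1.61 (trachea EGFP), 0.809 (trachea Tomato), 0.786 (stomach EGFP) and 0.816 (stomach Tomato) and checked on simulated data, as was the rule of size. Since 3 of these factors are below 1, rounding merges reads and no count model was run. A pseudocount of 1, a minimum of 50 and a limit of 4-fold were used. Intervals are exact (Clopper-Pearson or Poisson) and cover counting error only. Because no molecular identifiers were used, reads are not independent molecules. Exon lengths came from GENCODE on GRCm38, and promoters from RefSeq. Python 3.11.15 and scipy 1.17.1 were used.

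The members, the 16 further gene lists and the rules were chosen with earlier results of these data known. Named were all members, up to 4 genes per list that changed most, past the rule, in a tissue, markers and other list genes beside a member's value, and for each member at 200 or more the 2 nearest genes. Genes named beyond this, among them Hhex, Isl1, Slc18a1, Slc18a2, Sort1, Cckbr and Tacr1, were chosen after their values were seen. Alternatives changed the pseudocount, minimum, scaling, limit and handling of repeated symbols. The value of 1 list gene is not reported here.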

Additional observations from a re-analysis of the deposited data

Results flagged for a closer look

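The 4 genes below were called in opposite directions in the trachea and the stomach, and the difference was not tested because each tissue has 1 library per sort. Sstr2, a somatostatin receptor, had a log2(EGFP/Tomato) of 8.03 in the trachea (261 and 0 normalized counts) and -7.09 in the stomach (0 and 135). For Htr1b, a serotonin receptor, the values were 7.71 (209 and 0) and -6.34 (0 and 80). Scg5, a chaperone of the convertase PCSK2, stood at 8.41 (338 and 0) and -5.67 (35 and 1832). Gch1, the entry enzyme of tetrahydrobiopterin synthesis, stood at 4.26 (114 and 5) and -2.27 (16 and 81). Of the 10 hormone and amine genes 0 were called in opposite directions, but only 2 of them, Calca and Hdc, reached the minimum in both tissues. This count therefore carries no test. The share of all genes called in opposite directions was not computed.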

How the results depend on the processing

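Of 10 alternatives, 8 left each count of called members within 1.5 times, and the minimum alone moved counts beyond that. With a minimum of 500 normalized counts, 0 members were called in the trachea, 4 in the stomach, 4 between the Tomato libraries and 1, as before, between the EGFP libraries. Without a minimum, 5 members were called between the EGFP libraries. Fewer or more genes reach those minimums by construction. All 19 log2 ratios of members at the minimum kept their direction and their side of the 4-fold limit under 6 alternatives of pseudocount, scaling and repeated symbols. The size of a log2 ratio against a library at 0 depends on the pseudocount, so that for Calca in the trachea it was -11.49 with 0.1 and -4.89 with 10. Scaling to the same total moved the median log2(EGFP/Tomato) of all genes from -0.32 to 0.26 in the trachea and from -0.15 to 0.03 in the stomach, and member ratios by at most 0.39 under any rescaling. Without the 10 highest genes of each library these medians were 0.14 and -0.32. Over all genes, 2621 were called in the trachea and 1268 in the stomach at a minimum of 500, against 6062 and 4126. Without a minimum 6970 were called in the stomach, 6545 with a 2-fold limit, and 2863 were past 8-fold. No paired analysis was possible because each group holds a single library, and leaving out a replicate was not possible for the same reason. Values under 4.83 normalized counts in the EGFP library of the trachea, the shallowest, rest on fewer than 3 reads.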
